A study of Drosophila melanogaster with 4 samples.

Results

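The 10 genes described here belong to the Hippo growth control pathway and to its Fat-Dachsous branch in the Drosophila melanogaster wing imaginal disc, the larval sheet of epithelium from which the adult wing forms. They were taken by symbol, as yki, hpo, wts, sav, ex, Mer, kibra, ft, ds and fj, and each was listed in at least 1 of 4 tables that together list 7451 genes. Third-instar discs of 4 genotypes were dissociated for droplet-based single-cell RNA sequencing, with 1 library per genotype and 100 to 120 discs dissected. The Control carried ap-Gal4 driving GFP over a wild-type chromosome (ap-Gal4>GFP/+), and every other genotype carried the same driver and GFP. The Cdk8-CycC depletion added UAS-Cdk8i-cycCi/+, the Med12 depletion added UAS-Med12i/+, and the combined depletion added UAS-Cdk8i-cycCi-Med12i/+. The targets are subunits of the CDK8 kinase module of the Mediator complex, and the study asked how loss of separate subunits acts on proliferation and tissue size. The driver follows apterous (ap), the selector gene of the dorsal compartment, so the constructs act in dorsal cells. The GFP-negative cells of the same discs are taken to be mostly ventral.

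The Hippo pathway restrains the growth of imaginal discs. The kinase Hippo (hpo), with its scaffold Salvador (sav), activates the kinase Warts (wts), which phosphorylates the coactivator Yorkie (yki) and keeps it out of the nucleus. Expanded (ex), Merlin (Mer) and Kibra (kibra) recruit and activate these kinases at the apical membrane, and their genes are themselves known targets of Yorkie, which gives a negative feedback. Fat (ft) and Dachsous (ds) are giant cadherins that bind each other across cell boundaries, and Four-jointed (fj) is a Golgi kinase that phosphorylates their cadherin domains and tunes that binding. In the wing disc ds is known to be expressed most strongly towards the hinge and fj most strongly towards the centre of the pouch.

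Each of the authors' deposited tables compares GFP-positive with GFP-negative cells of 1 library. A log2 fold is the ratio of mean expression between these sets, positive where the GFP-positive, and so mostly dorsal, cells were higher. A detection share is the percentage of cells of a set in which the gene was found. No fold or share has a replicate error, and no test between genotypes was possible, so genes are described by size. A gene is past the size rule when its fold reaches 1.3 in either direction and one of the cell sets has it in 10% or more of its cells. A gene missing from a table is not listed there and has no value, which does not mean that its fold was small, since genes with folds near 0 are listed. The highest p over cells in the tables is 0.009997, so a gene that did not reach such a p is missing whatever its fold, and percentages of listed genes are not percentages of all expressed genes. Folds are taken to include a pseudocount and to understate differences of weakly expressed genes, and levels were not compared between genes. Ranks of folds are over all listed genes, not genes of like detection, so widely detected genes can rank further out.

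The labels and the cell sets were checked on marker genes. The GFP transcript had a share of 100% on the positive side and 0% on the negative side in every library. A split of cells by detected GFP would give these shares, so they are no check of the sets. Under such a split, a dorsal cell whose GFP was missed would be counted as GFP-negative. Whether this had a part in the larger shares of GFP-positive cells was not tested. Detection of ap ranged over the 4 tables from 62.6% to 68.1% in GFP-positive cells and from 5.3% to 7.2% in GFP-negative cells. The pouch gene nub was found in 100% of both sets, so the comparison is among nub-expressing cells. A share of 100% in both sets is what choosing cells by nub would give, so it is no check of the labels or sets. The targeted genes CycC, Cdk8 and kto, which encodes Med12, were found in fewer GFP-positive than GFP-negative cells in each library whose genotype names them and in more in the other libraries. Of 4 hemocyte markers none was listed in any table, and of 4 myoblast markers Mef2 alone was listed, in the Cdk8-CycC and combined depletion. All 4 peripodial markers were listed in every table, with summed detection shares of 164.3 to 187.9 points in GFP-positive and 73.4 to 88.2 points in GFP-negative cells. Most of that difference came from Ubx, whose log2 fold lay between 3.86 and 4.62, the control included. In GFP-positive cells Ubx was found in 88.1% to 96.0%, Antp in 53.6% to 82.8%, eyg in 11.5% to 13.6% and odd in 3.9% to 8.0%. The log2 fold of odd was below 0 in the control, Cdk8-CycC and combined libraries, and that of eyg under Med12 depletion. The 4 markers thus did not behave alike, and whether peripodial cells had a part in the results below was not tested. Over the 4300 genes listed in all tables, the median detection share in GFP-positive cells was 32.5%, 39.3%, 50.4% and 50.7% in the order control, Cdk8-CycC, Med12 and combined depletion. In GFP-negative cells it was 22.4%, 24.5%, 36.7% and 35.0%. Depth per cell is unknown, and these medians set the scale for the shares of single genes.

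The clearest values among the 10 genes were those of ds and ex, both with a lower mean in the GFP-positive set of the Med12 and combined depletion. Under the combined depletion the log2 fold of ds was -0.48, a mean 1.39-fold lower in the GFP-positive cells, and that of ex was -0.35, or 1.28-fold lower. Under Med12 depletion both lay at -0.25. The feedback and cascade genes other than ex stayed within 0.07 of 0 in every table that listed them. The log2 fold of ft was 0.13 to 0.17 in all 4 libraries, and fj lay on different sides of 0 in different genotypes.

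Counting members against the rest of each table, 0 of 7 listed members were past the size rule in the control (background 0.396% of genes with enough detection), 0 of 8 under Cdk8-CycC depletion (0.578%), 0 of 8 under Med12 depletion (1.23%) and 1 of 8 under the combined depletion (0.91%), this 1 being ds. That call assumes that the deposited fold is a natural log, since read as log2 it would be -0.33 and short of the rule. The members higher in GFP-positive cells numbered 4 of 7 in the control, 5 of 8 under Cdk8-CycC depletion, 5 of 8 under Med12 depletion and 4 of 8 under the combined depletion, against 55.8%, 77.6%, 73.9% and 76.1% of all listed genes. Their median log2 folds were 0.00065, 0.021, 0.020 and 0.0055 in that order, beside 0.0043, 0.021, 0.017 and 0.019 for all genes. In the first 3 libraries the member medians lay close to those of all genes. Under the combined depletion the member median was lower, and ds, ex, fj and Mer had 0.157%, 0.455%, 2.38% and 16.6% of listed genes below them.

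**Figure D1:**
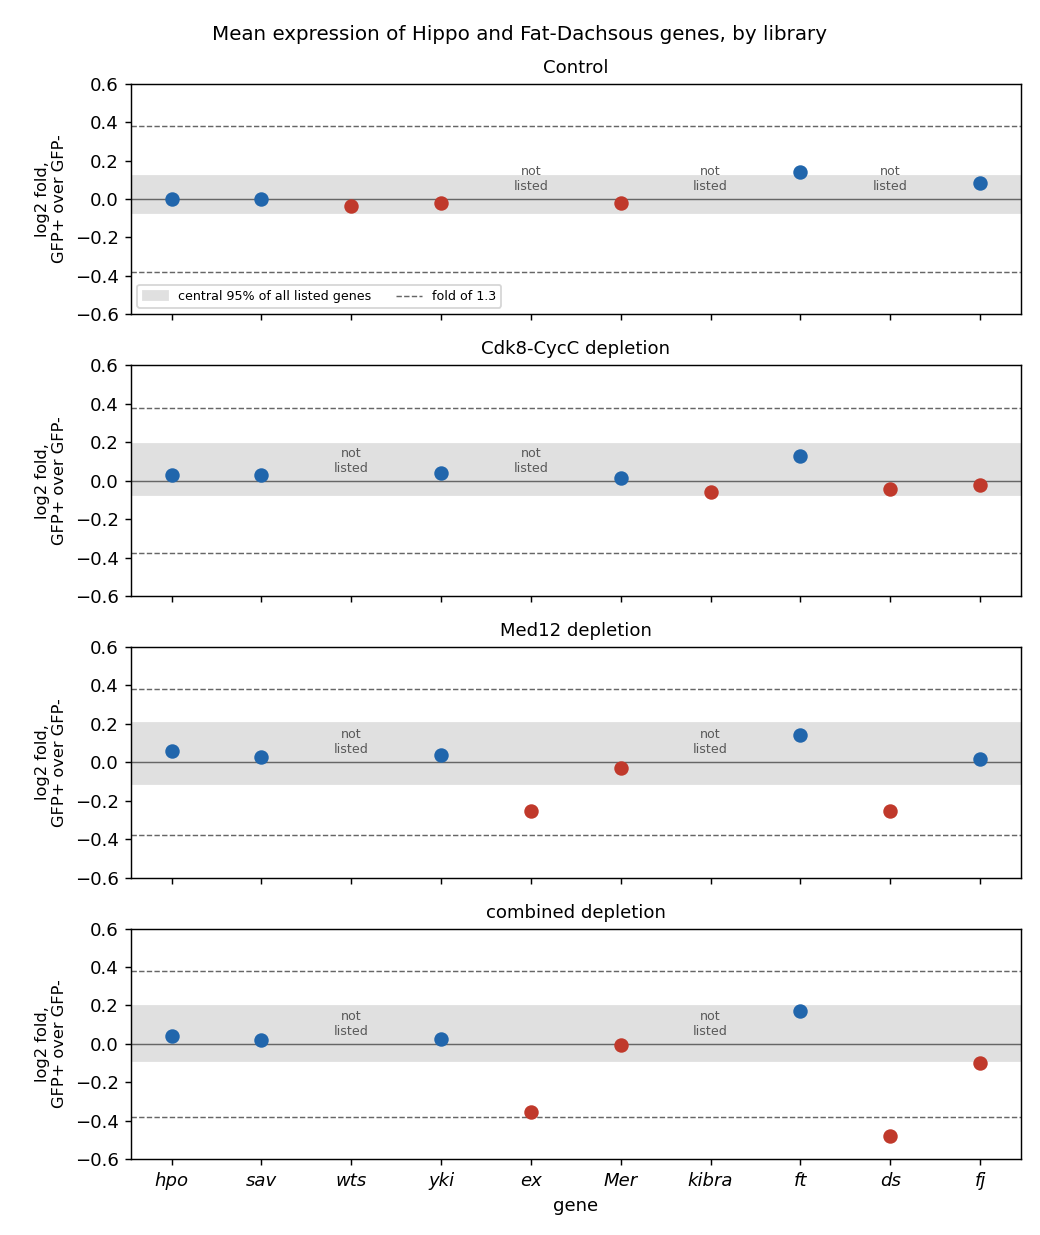
Log2 fold of mean expression, GFP-positive over GFP-negative cells, for each of the 10 genes (horizontal axis) in the 4 libraries (panels). Blue points are higher and red points lower in GFP-positive cells, the grey band holds the central 95% of all listed genes, dashed lines mark a fold of 1.3, and ds under the combined depletion, at -0.48, is the only point beyond them.

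The ds gene (FBgn0284247), which encodes the cadherin ligand of Fat, was not listed in the control table. Its log2 fold was -0.04 under Cdk8-CycC depletion, -0.25 under Med12 depletion and -0.48 under the combined depletion. In these tables it ranked 309th from the lowest of 6799 genes, 47th of 5568 and 11th of 6377. The authors' deposited tables give its detection as 73.0%, 71.7% and 85.8% of GFP-positive cells and as 61.4%, 68.3% and 81.4% of GFP-negative cells, in the same order of libraries. Cells with any ds transcript were thus not fewer in the GFP-positive set, although the mean was lower. The GFP-positive share was also the larger for 99.3%, 98.5% and 99.4% of all listed genes. For ds the gap between the sets was 11.6 points under Cdk8-CycC depletion and 3.4 and 4.4 points in the libraries with Med12 depletion. The log2 ratio of the shares, centred on all genes, differed less between the 3 libraries, at -0.35, -0.35 and -0.40.

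Compared between depletions without the control, the fold of ds was 0.44 lower on the log2 scale (-0.44) in the combined than in the Cdk8-CycC depletion, which is past the size rule. That made 1 of 7 members past it, against 0.391% of all genes in this comparison, and read as log2 the difference would be -0.30 and short of the rule. The combined depletion lay at -0.23 relative to Med12 depletion, with 0.135% of genes lower, and 0 of 8 members were past the rule there (background 0.0602%). Cdk8-CycC relative to Med12 depletion lay at 0.21, with 99.2% of genes lower, and 0 of 7 members were past the rule (0.417%). By the centred ratio of detection shares these 3 differences of ds were -0.06, -0.05 and 0.0092, and by the plain ratio the first was -0.17, so none was past the rule by detection. These 3 comparisons share libraries in pairs, so their values for ds are not separate observations.

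The receptor gene ft (FBgn0001075) was higher in GFP-positive cells of every library. Its log2 fold was 0.14 in the control, 0.13 under Cdk8-CycC depletion, 0.14 under Med12 depletion and 0.17 under the combined depletion, above 98.2%, 93.8%, 95.2% and 96.7% of listed genes. It was found in nearly every cell, at 97.2% to 99.0% of GFP-positive and 92.2% to 96.3% of the other cells in the authors' deposited tables, the control standing at 97.2% and 92.9%. The values of ft in the depletions lay between 0.01 below and 0.03 above that of the control. The 2 cadherin genes therefore had folds of opposite sign in all 3 tables that list both.

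The kinase gene fj (FBgn0000658) had a log2 fold of 0.08 in the control, -0.02 under Cdk8-CycC depletion, 0.02 under Med12 depletion and -0.10 under the combined depletion. Its control value lay above 94.5% of listed genes, and under the combined depletion 2.38% of genes lay below it. Its detection shares did not follow this order. In GFP-positive cells they were 78.5%, 78.2%, 82.4% and 88.9% in the same order of libraries, and in GFP-negative cells 68.1%, 67.1%, 72.1% and 70.7%, in the authors' deposited tables. The gap between the sets was 10.3 to 11.1 points in the first 3 libraries and 18.2 points under the combined depletion, where the GFP-positive set had the larger share of fj-positive cells and the lower mean.

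Relative to control, fj was the lowest of the measured members in each depletion, at -0.11 for Cdk8-CycC, -0.07 for Med12 and -0.18 for the combined construct. Among all genes compared, 1.17%, 3.3% and 0.744% lay lower. By the ratio of detection shares, centred on all genes, the differences were -0.07, 0.07 and 0.15, so the order of the combined depletion and control turned with the measure. None of these values was past the size rule. Of the 6 members listed in every table, fj had the widest range of log2 fold, 0.18. Over the 4 log2 folds the genes nearest to it, by Euclidean distance among 4299, were the ribosomal protein gene RpL13A (0.061), Tctp (0.071), which encodes a growth-associated translationally controlled protein, and the targeted gene Cdk8 (0.071), against a median distance of 0.17.

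Among the apical activators, ex (FBgn0004583) was listed for the Med12 and combined depletion alone. Expanded is a FERM-domain scaffold that binds Yorkie and promotes Warts activation, and ex transcription is a common readout of Yorkie activity. Its log2 fold was -0.25 under Med12 depletion and -0.35 under the combined depletion, the 46th lowest of 5568 and the 30th lowest of 6377 genes. The latter is a fold of 1.28, just short of the rule of 1.3, and ds at 1.39 was the member just past it. In the authors' deposited tables, ex was found in 81.2% of the GFP-positive and 77.2% of the other cells under Med12 depletion, and in 90.1% and 88.4% under the combined depletion. The lower mean was again not accompanied by fewer positive cells, but the GFP-positive share was the larger for 98.5% and 99.4% of all listed genes there. Among genes within 5 percentage points of its GFP-negative share, 1.15% and 0.651% had a lower ratio of shares than ex. Relative to Med12 depletion the combined depletion lay at -0.10 for ex, with 1.89% of genes lower, and no difference from control could be formed.

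The other apical activators had small values. Mer (FBgn0086384), the fly homologue of the NF2 tumour suppressor, had log2 folds of -0.02 in the control, 0.01 under Cdk8-CycC depletion, -0.03 under Med12 depletion and -0.0077 under the combined depletion. Its detection in the authors' deposited tables was 31.2%, 40.9%, 50.2% and 51.7% in GFP-positive cells and 22.8%, 27.2%, 40.3% and 37.7% in GFP-negative cells, with the libraries in the same order. In GFP-positive cells the order of these shares is that of the medians over all genes. The scaffold gene kibra (FBgn0262127) was listed under Cdk8-CycC depletion only, at a log2 fold of -0.06 with 3.1% of genes lower and, in the authors' deposited table, detection of 48.8% and 39.3%. Under Med12 and combined depletion ex stood at -0.25 and -0.35 and Mer at -0.03 and -0.0077, and kibra had no value there. Mer was detected in fewer cells than ex, and folds are taken to understate differences of weakly expressed genes. A role of Yorkie in these values was not tested.

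The core kinase genes and yki were nearly equal between the cell sets. The log2 fold of hpo (FBgn0261456) was 0.0022 in the control, 0.03 under Cdk8-CycC depletion, 0.06 under Med12 depletion and 0.04 under the combined depletion. That of sav (FBgn0053193) was 0.00065, 0.03, 0.02 and 0.02 in the same order. Both lay above 0 in all 4 libraries, as did the median of all genes. The kinase gene wts (FBgn0011739) was listed in the control only, at -0.04, with detection shares of 49.8% in GFP-positive and 39.5% in GFP-negative cells in the authors' deposited table. The gene of the pathway's effector, yki (FBgn0034970), had log2 folds of -0.02, 0.04, 0.04 and 0.02. It was the only cascade gene to lie below 0 in the control and above 0 in every depletion, with differences from control of 0.06, 0.06 and 0.04, which 77.8%, 80.5% and 71.7% of genes did not reach.

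Detection shares of the cascade genes differed between libraries in both cell sets. In the authors' deposited tables hpo was found in 39.7%, 47.2%, 62.1% and 62.2% of GFP-positive cells and in 29.5%, 31.7%, 45.3% and 44.3% of GFP-negative cells, in the order control, Cdk8-CycC, Med12 and combined depletion. The shares of sav were 30.5%, 37.9%, 50.5% and 46.5% in GFP-positive cells and 21.3%, 23.4%, 36.6% and 30.7% in GFP-negative cells. Those of yki were 55.0%, 62.2%, 74.9% and 71.0% in GFP-positive cells and 44.3%, 45.7%, 62.7% and 59.6% in GFP-negative cells. In either cell set the Med12 and combined libraries were the higher pair for all 3 genes, and the median over all genes was higher there too. The genotype and the depth of a library cannot be told apart with 1 library each.

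**Figure D2:**
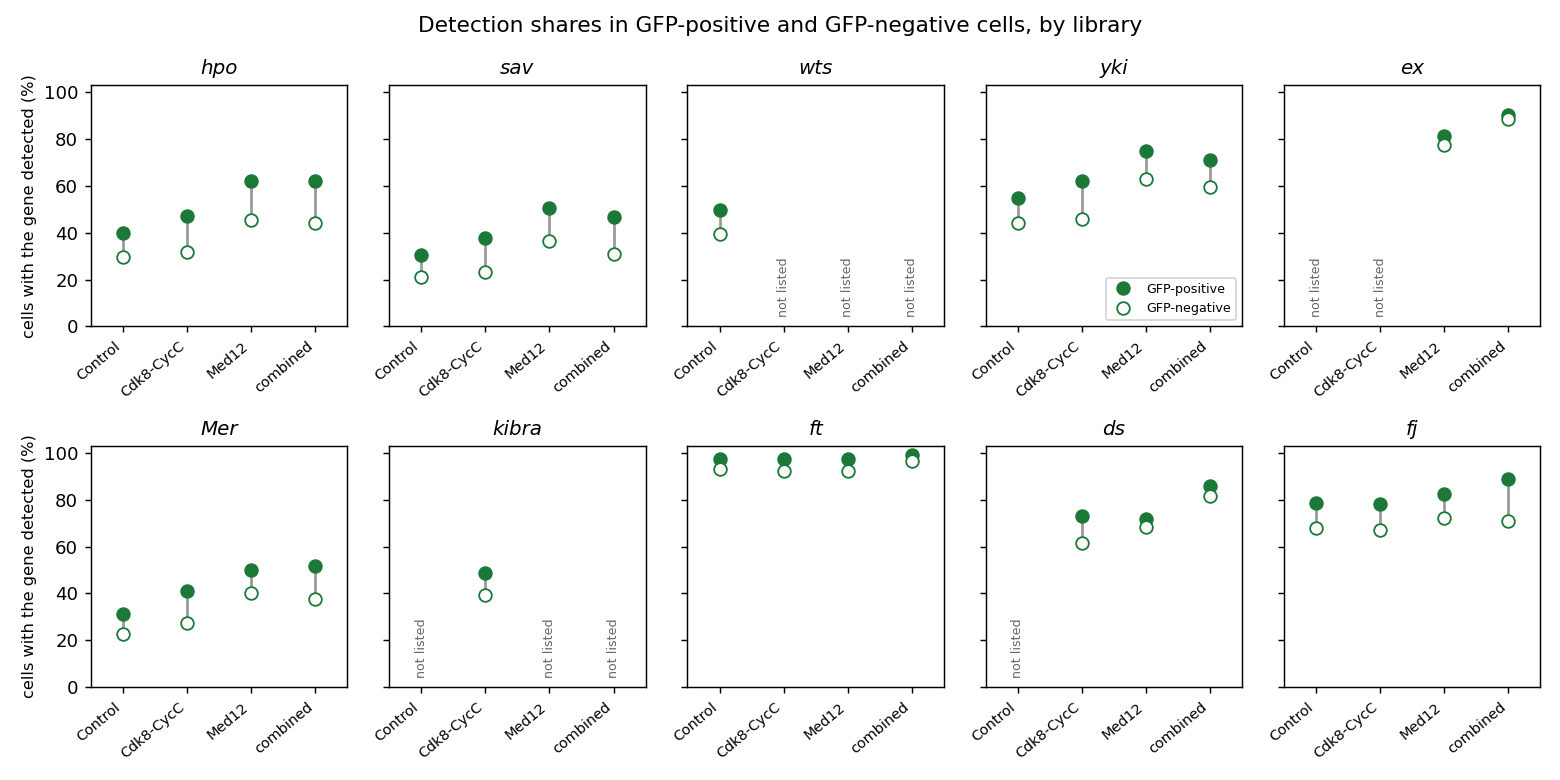
Percentage of cells in which each gene was detected (vertical axis) in GFP-positive (filled) and GFP-negative (open) cells of each library (horizontal axis), with a panel per gene. The filled point is above the open one wherever a gene was listed. For ex and ds the 2 points nearly meet in the Med12 and combined libraries, where they are 1.7 to 4.4 points apart. The points of ft are 2.7 to 5.0 points apart in every library.

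Every listed member had the larger detection share in GFP-positive cells, as had 98.5% to 99.4% of all listed genes, so the ratio of the shares was read against that of all genes. The median log2 ratio over all genes was 0.49 in the control, 0.60 under Cdk8-CycC depletion, 0.42 under Med12 depletion and 0.48 under the combined depletion. After centring on it, the members past the size rule were 1 of 7 in the control (ft, background 7.11%), 1 of 8 under Cdk8-CycC depletion (ft, 17.6%), 0 of 8 under Med12 depletion (10.1%) and 3 of 8 under the combined depletion (ex, ft and ds, 14.0%). The ratio necessarily approaches 0 for genes found in nearly every cell, such as ft. Genes of like share, within 5 percentage points in GFP-negative cells, were therefore used as a second reference, chosen after the data were seen.

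Against genes of like share, ft was unremarkable, with 63.7% to 79.5% of such genes at a lower ratio. The ratio of ds was lower than that of most genes of like share in each table that lists it. Under Cdk8-CycC depletion 4.47% of 425 such genes lay below it, under Med12 depletion 1.52% of 394, and under the combined depletion 1.89% of 370. For ex the corresponding values were 1.15% of 348 genes under Med12 depletion and 0.651% of 307 genes under the combined depletion. By this measure kibra under Cdk8-CycC depletion also stood low, with 1.38% of 724 genes below it, as did Mer under Med12 depletion, with 4.79% of 751 genes below it. Its distance from the median of genes of like share there was -0.10 on the log2 scale, the same as that of ex to 2 decimals. In contrast, fj under the combined depletion stood high, with 98.5% of 482 genes below it, against 32.3%, 7.12% and 32.5% in the other 3 libraries. No member differed from the median of genes of like share by a ratio of 1.3.

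**Figure D3:**
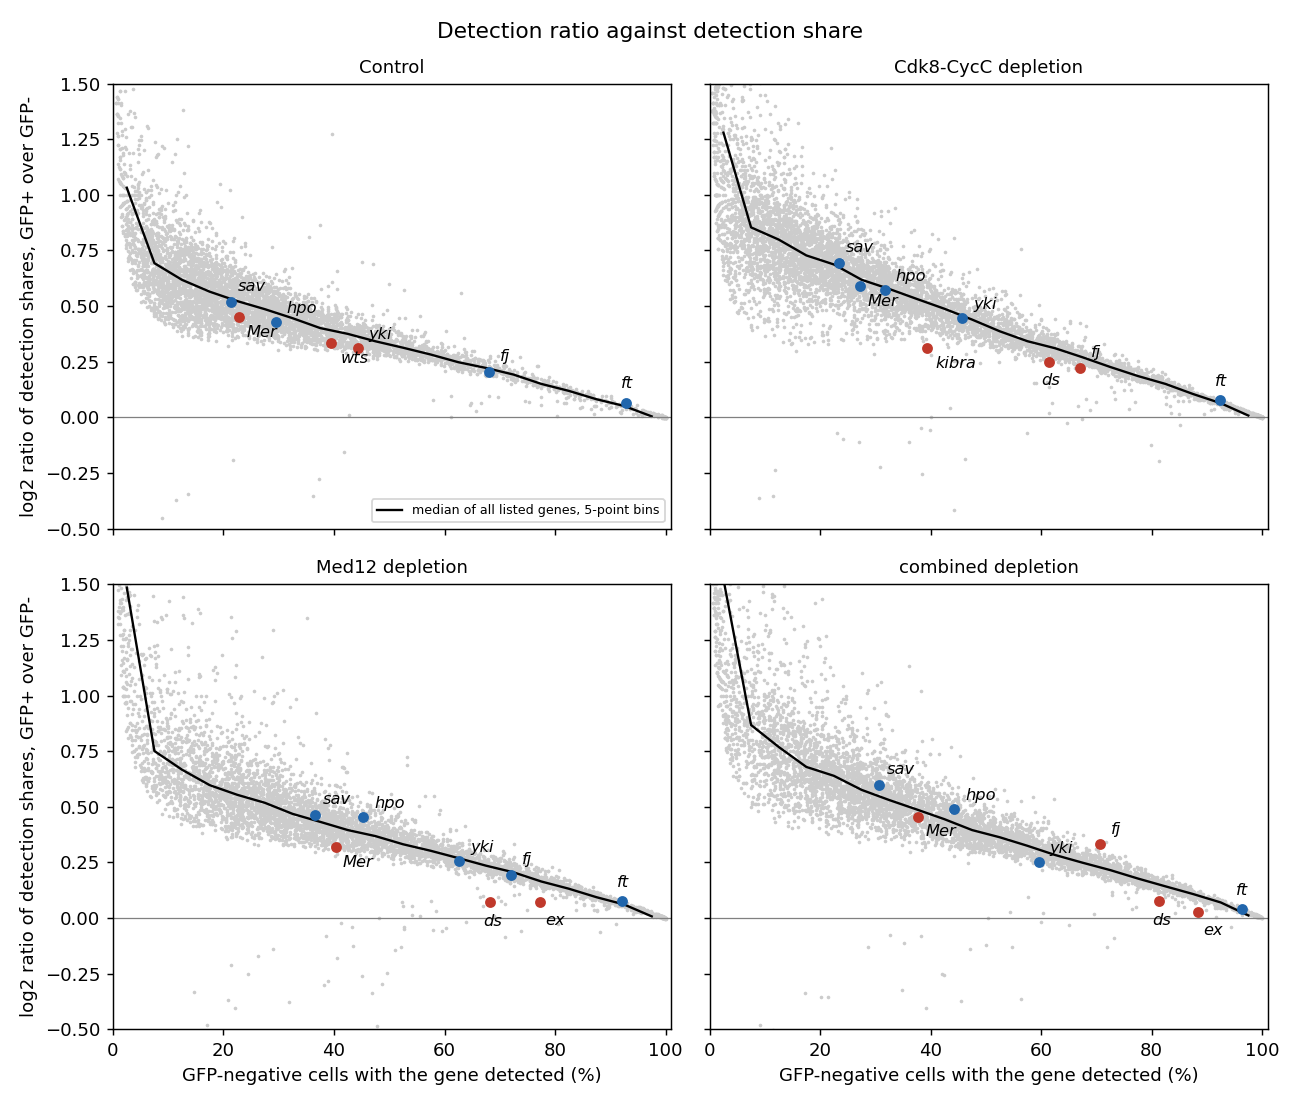
Log2 ratio of the detection shares, GFP-positive over GFP-negative (vertical axis), against the share in GFP-negative cells (horizontal axis, %) for all listed genes (grey) and the members (blue, higher mean in GFP-positive cells; red, lower), with the median of all genes in 5-point bins as a line. Genes beyond the vertical axis are not drawn; ds and ex lie below the line under Med12 and combined depletion, and fj lies above it under the combined depletion.

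Differences from the control library could be formed for 6 members, hpo, sav, yki, Mer, ft and fj, in each depletion. Of these, 0 of 6 were past the size rule under Cdk8-CycC depletion (background 0.118%), 0 of 6 under Med12 depletion (0.38%) and 0 of 6 under the combined depletion (0.414%). Above 0 lay 4, 4 and 5 of the 6, with median log2 differences of 0.03, 0.01 and 0.02, beside 0.02 for all genes in each case. The central 95% of all genes ran from -0.07 to 0.15, -0.08 to 0.15 and -0.08 to 0.16, and fj under Cdk8-CycC and combined depletion was the only member outside it. All 3 differences use the same control library. With ds and ex set to a fold of 0 in the control, where they were not listed, ds would be past the rule in the combined depletion at -0.48. Likewise ex would lie at -0.25 and -0.35 in the 2 depletions that list it. These values only repeat the folds within the depletion libraries and cannot show a change from control.

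Genes that mark parts of the wing field were set beside ds and ex, from a list written after the data were seen. Of 5 hinge and proximal transcription factor genes, 4 were listed in each of the first 3 libraries and 5 under the combined depletion, and 3 lay above 0 each time. Their median log2 fold was 0.18 in the control, 0.12 under Cdk8-CycC depletion, 0.11 under Med12 depletion and 0.04 under the combined depletion. The members of that list had values of either sign. The hinge gene hth, which also encodes a DNA-binding partner of Yorkie, lay at -0.58 under both Med12 and combined depletion and was not listed elsewhere. For zfh2 the log2 fold was -0.00020 in the control, -0.10 under Cdk8-CycC depletion and -0.67 under the combined depletion. The dorsal hinge and notum gene Dr stayed between 0.51 and 0.61 in the 4 libraries and tsh between 0.15 and 0.26. Dr enters the counts and medians above, although a dorsal gene can be higher in mostly dorsal cells whatever the state of the hinge. Summed detection shares of the list were 161, 177.3, 212.1 and 290.1 points in GFP-positive and 78.6, 89.4, 125 and 192.3 points in GFP-negative cells, over the genes listed in each table.

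Of 5 pouch transcription factor genes, dve was not listed in any table. The others listed numbered 3, 4, 2 and 2, and those above 0 were 0, 0, 1 and 1, with median log2 folds of -0.26, -0.21, -0.13 and -0.15. Their summed detection shares were 232, 332.2, 173.8 and 174.9 points in GFP-positive and 217.2, 315.4, 154.2 and 151.2 points in GFP-negative cells. The genes behind these medians differ between tables, since rn was listed in the first 2 libraries and sd under Cdk8-CycC depletion only. The log2 fold of nub, listed in all 4, was -0.36 in the control, -0.33 with Cdk8-CycC, -0.45 with Med12 and -0.52 with the combined construct, past the size rule in the last 2. Since nub was found in every cell of both sets, these are folds among nub-expressing cells only. Low values of ds and ex occurred in the same 2 libraries as low values of hth and the lowest values of nub. In those libraries vg lay above 0, at 0.18 and 0.22, while zfh2 lay at -0.67 under the combined depletion. The hinge genes tsh, Sox15 and Dr lay above 0 there too, but also in the control, at 0.23, 0.13 and 0.61. Since Dr is a dorsal gene, its sign in the mostly dorsal set says little about the hinge. Neither ex nor hth was listed in the control or under Cdk8-CycC depletion, and ds was not listed in the control. The overlap thus depends in part on which libraries list these genes. A shift in which parts of the pouch and hinge make up the 2 cell sets was not tested.

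Further genes of the pathway were described in 6 lists of 71 genes in all, of which 7 were listed in no table. Relative to control, 0 of 38 measured list genes were past the size rule under Cdk8-CycC depletion, 0 of 31 under Med12 depletion and 0 of 36 under the combined depletion. Above 0 lay 32 of 38, 21 of 31 and 32 of 36 of them, beside 74.6%, 69.2% and 71.0% of all genes. These counts are to be read against 0.118%, 0.38% and 0.414% of all genes past the rule, shares at which few or no calls would fall in lists of this size. They do not cover list genes missing from the control table, such as hth. Within the control, Cdk8-CycC, Med12 and combined libraries, 0 of 40, 0 of 58, 2 of 47 and 3 of 52 list genes were past the rule. The background was 0.396%, 0.578%, 1.23% and 0.91% of genes in the same order.

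Of the partners of Fat, all 4 measured genes lay above 0 in each depletion, but the 4 were not the same genes each time. Their median log2 differences were 0.04 for Cdk8-CycC, 0.09 for Med12 and 0.10 for the combined construct. The median over all genes was 0.02 each time. The values for the palmitoyltransferase gene app were 0.04, 0.09 and 0.09, and those for Fbxl7, a ubiquitin ligase subunit gene acting below Fat, were 0.03, 0.10 and 0.09. The adaptor gene Dlish lay at 0.0035 under Cdk8-CycC and 0.04 under Med12 depletion. The gene dco, whose product is a casein kinase that phosphorylates Fat, lay at 0.06 under Cdk8-CycC and 0.10 under the combined depletion, and lft, whose product binds the cytoplasmic tails of Fat and Dachsous, at 0.09 and 0.10 under Med12 and combined depletion. In the control itself 2 of 5 genes of this list lay above 0, with a median log2 fold of -0.07. Of the core planar polarity genes, which act with the Fat system in orienting cells, 4, 2 and 3 were measured and 3, 0 and 2 lay above 0. Their values ran from -0.0017 for pk to 0.02 for stan under Cdk8-CycC depletion, with dgo at 0.02 and dsh at 0.01 between them. Under Med12 depletion stan lay at -0.02 and dgo at -0.0073, and under the combined depletion the range was from -0.04 for dgo to 0.03 for dsh, with stan at 0.0057.

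Among apical regulators of the cascade, 7 of 7 measured genes lay above 0 under Cdk8-CycC depletion, 4 of 5 under Med12 depletion and 5 of 6 under the combined depletion, with medians of 0.03, 0.04 and 0.03. The highest each time were sdt (0.11, 0.09 and 0.08) and Patj (0.06, 0.06 and 0.07), whose products form the Crumbs complex that holds Expanded at the membrane. The lowest were aPKC (0.00054) and par-6 (0.02) under Cdk8-CycC depletion, scrib (-0.01) and mats (0.03) under Med12 depletion, and par-6 (-0.0039) and aPKC (0.0047) under the combined depletion. Of the genes for inhibitors of Hippo and Warts, 9 of 11, 8 of 9 and 10 of 11 lay above 0. The kinase gene par-1 led under Cdk8-CycC (0.22) and combined depletion (0.19) and had no value under Med12 depletion. Next were Dlg5 under Cdk8-CycC depletion (0.08) and Slmap under the combined depletion (0.07), while Sik3 (0.10) and the Ajuba gene jub (0.06) led under Med12 depletion. The lowest were Rassf and Fgop2 (-0.0020 and -0.0017), Mob4 and POSH (-0.03 and 0.0095), and Pp2A-29B and Fgop2 (-0.03 and 0.0085) in the same order of depletions. The products of Slmap, Mob4, Fgop2 and Pp2A-29B belong to the phosphatase complex that inactivates Hippo.

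Partners and regulators of Yorkie had 5 of 7, 3 of 6 and 7 of 7 measured genes above 0 relative to control. Under Cdk8-CycC depletion they ran from Hipk (-0.03) and tsh (-0.0024) to mor (0.08) and 14-3-3epsilon (0.15), whose product retains phosphorylated Yorkie in the cytoplasm. Under Med12 depletion they ran from tsh (-0.08) and trr (-0.03) to Su(dx) (0.0057) and Tgi (0.03), which encodes a repressor that competes with Yorkie. Under the combined depletion they ran from 14-3-3epsilon (0.01) and trr (0.02) to Tgi (0.06) and Hipk (0.15). Within that library Hipk, which encodes a kinase that promotes Yorkie activity, was past the size rule at 0.41, as was hth at -0.58. Under Med12 depletion hth was past it too, also at -0.58. The log2 fold of Hipk was also above 0 in the control (0.27), Cdk8-CycC (0.23) and Med12 (0.27) libraries.

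Known target genes of Yorkie other than the members went in both directions. Measured relative to control were 5, of which 4, 2 and 4 lay above 0. The cyclin gene CycE lay at 0.25, 0.06 and 0.18, and vg at -0.05, 0.21 and 0.24. For wg, which encodes the Wingless ligand, the values were 0.04, -0.26 and -0.23. Myc lay at 0.07, -0.08 and 0.0082, and the Notch ligand gene Ser at 0.03, -0.06 and 0.22. Within libraries, Ser was past the size rule under the combined depletion at 0.55 (control 0.33) and Myc under Med12 depletion at -0.40 (control -0.32). Diap1, E2f1 and dally were not listed in the control. Within libraries, Diap1 lay at -0.16 under Med12 and -0.18 under the combined depletion. For E2f1 the log2 folds were 0.07, 0.0053 and 0.04 under Cdk8-CycC, Med12 and combined depletion, and dally lay at -0.03 under Cdk8-CycC depletion. Relative to control, the target with the highest value was CycE under Cdk8-CycC depletion and vg under Med12 and combined depletion. Several of these genes are known to respond to other signals as well.

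**Figure D4:**
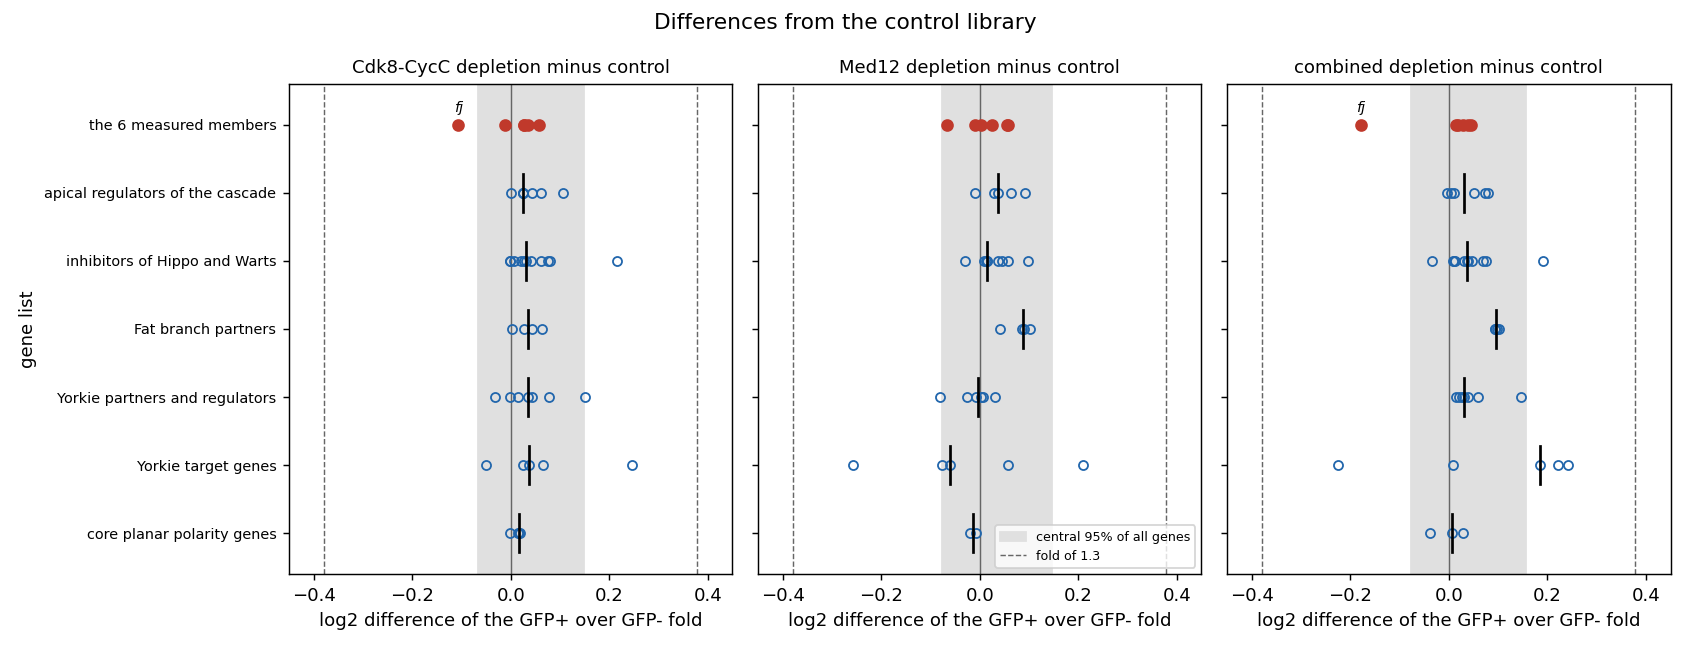
Log2 difference between the fold of each depletion library and that of the control (horizontal axis) for the 6 measured members (red) and the genes of the 6 pathway lists (open blue, black bar at the median), with a panel per depletion. The grey band holds the central 95% of all genes and dashed lines mark a fold of 1.3; no gene lies beyond the dashed lines, and fj is the lowest member in each panel, at -0.11, -0.07 and -0.18.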

How the data were processed

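Cell Ranger 3.0.2 and Seurat were used upstream, per the submitters' processing notes. Not given in the sources used here are Seurat's version, the genome build, the cell filters and the handling of doublets, so no coordinates are printed. The authors' deposited fold was read as a natural log, after the column name of early Seurat releases, since the file headers do not name the base. Another base would rescale all log2 values by 1 factor. The deposited detection values are a fraction of cells per set. The first belongs to the set named in the row. Read otherwise, the ratio would jump at a fold of 0, from a median log2 of 0.60 to -0.53 in the control. The authors' deposited p-values treat cells as replicates and reach 0.009997 at most; they were not used. Cell numbers and depth are unknown, so no interval was computed.

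Folds were converted to log2, signed by the named set, and differenced between libraries over genes listed in both (Python 3.11.15, pandas 2.3.3). Background percentages are over genes detected in at least 10% of the cells of a set. The conversion and the size rule were checked on made-up tables with known answers. The members, lists and rules were chosen with earlier results of these data known. Named genes are all members, the 2 highest and 2 lowest genes of each list per difference, those past the size rule, and the 3 genes nearest to the widest-ranging member. Markers of the hinge and pouch were added later. Symbols came from the tables, and d was looked up as dachs. Alternatives covered the measure, its centring, the log base, the size rule and unlisted genes.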

Additional observations from a re-analysis of the deposited data

Results flagged for a closer look

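For 3 genes the fold had opposite signs in libraries of different genotypes, a difference that was not tested. The log2 folds of fj were 0.082 in the control, -0.024 under Cdk8-CycC depletion, 0.015 under Med12 depletion and -0.097 under the combined depletion. Those of yki were -0.020, 0.038, 0.036 and 0.024 in the same order, and those of Mer were -0.023, 0.013, -0.032 and -0.0077. The values of yki and Mer are small beside the central 95% of listed genes in each table.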

How the results depend on the processing

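No paired analysis was possible because each genotype has 1 library, and no library could be left out. By the plain ratio of detection shares, 3 members were past the size rule in the control, 4 under Cdk8-CycC depletion, 2 under Med12 depletion and 3 under the combined depletion, against 0, 0, 0 and 1 by mean expression; centred on all genes the counts were 1, 1, 0 and 3. The sign of ds under the combined depletion turned with the plain ratio, to 0.076. The count of 1 under the combined depletion became 0 with the deposited fold read as log2 or a fold of 1.5, and 2 with a fold of 1.2. It was 0 with the signed column, chosen after the data were seen, because that column is blank there for 853 genes including ds. The count of 1 for the combined against Cdk8-CycC depletion became 0 by either detection ratio, with the log2 reading and at 1.5. Among differences from control, setting unlisted genes to 0 gave 1 member for the combined depletion, and 1 pathway gene each for Med12 and combined depletion, where the count had been 0. That member was ds, whose value then only repeats its fold within the library. For the detection ratio itself, the counts of 1, 1, 0 and 3 became 3, 4, 2 and 3 without centring. Odds ratios gave 2 under Cdk8-CycC, 3 under Med12 and 4 under the combined depletion, and turned the sign of ft, from between -0.52 and -0.34 to between 0.62 and 0.98, and genes of like share gave 0 in the control, Cdk8-CycC and combined libraries. Of 71 member values, 9 changed sign after centring on the median fold, 30 by the plain and 22 by the centred detection ratio, and 0 with the log2 reading. The cause of these changes was not tested beyond the construction of each alternative.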
